A study of Mus musculus with 3 samples.

Results

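Of the 29905 genes named in the vessel transcriptome, 9 are described here: the caveola genes Cav1, Cav2, Cavin1, Cavin2, Cavin3, Ehd2 and Pacsin2, together with Mfsd2a and Plvap, 2 endothelial genes tied to the control of vesicles in vessels. They were chosen by name, and each was represented by the Ensembl transcript with the most reads over the 3 libraries. Polyadenylated RNA of vessels isolated from whole brains was sequenced in 3 libraries, each from 1 pool of 3 male mice aged 3 months. Wild type (WT) mice with intact Cx30 gave the library of C57BL6 background, called the C57BL6 control here, and that of C57BL6/Balbc background (labelled C57BL6-BALB/c), called the mixed control, and the Cx30-deleted library (Cx30-/-) comes from mice that lack this astrocyte connexin, encoded by Gjb6, in all cells. Its background is C57BL6 by the sample labels and C57BL6/Balbc by the study's methods, so each WT library was compared with it in turn.

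Caveolae are small flask-shaped pits of the plasma membrane. Caveolins, which are inserted in the membrane and bind cholesterol, form the pit together with a coat of cavins, EHD2 sits at its neck and PACSIN2 bends the membrane. In most of the brain's endothelium such vesicles are rare compared with other organs, and MFSD2A, a lipid transporter of the blood-brain barrier that carries lysophosphatidylcholine with docosahexaenoic acid, is known to keep them so by changing the lipids of the membrane. PLVAP forms the diaphragms across fenestrae and across the necks of caveolae, and in the brain it is known from the fenestrated vessels of the choroid plexus and circumventricular organs and from immature or leaky vessels, but is sparse at the mature barrier.

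The members lie on 7 chromosomes (GRCm38, GENCODE M21 annotation). Cav1 (ENSMUSG00000007655, chr6:17306335-17341452) and Cav2 (ENSMUSG00000000058, chr6:17281185-17289115) are neighbours on the plus strand, with 17220 bases between the end of Cav2 and the start of Cav1. Cavin2 (ENSMUSG00000045954, chr1:51289126-51302960) is on the plus strand. The other members are on the minus strand, namely Cavin1 (ENSMUSG00000004044, chr11:100956733-100970887), Cavin3 (ENSMUSG00000037060, chr7:105480083-105482300), Ehd2 (ENSMUSG00000074364, chr7:15946958-15967567), Pacsin2 (ENSMUSG00000016664, chr15:83375607-83464606), Mfsd2a (ENSMUSG00000028655, chr4:122946850-122961188) and Plvap (ENSMUSG00000034845, chr8:71497765-71511752).

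The promoters of 7 members were found in RefSeq (GRCm38.p6), and 4 are shown because Cav1 and Cav2 are neighbours, Cavin2 differed most between the WT libraries when scaled to all genes, and Mfsd2a is the barrier gene of the group. Each is the 250 bases before the first listed transcript start, 5′ to 3′ on the gene's own strand, with the GC box (GGGCGG, or CCGCCC on the other strand) in capitals. They lie at chr6:17306085-17306334 for Cav1, chr6:17280935-17281184 for Cav2, chr1:51288876-51289125 for Cavin2 and chr4:122961189-122961438, minus strand, for Mfsd2a.
Cav1: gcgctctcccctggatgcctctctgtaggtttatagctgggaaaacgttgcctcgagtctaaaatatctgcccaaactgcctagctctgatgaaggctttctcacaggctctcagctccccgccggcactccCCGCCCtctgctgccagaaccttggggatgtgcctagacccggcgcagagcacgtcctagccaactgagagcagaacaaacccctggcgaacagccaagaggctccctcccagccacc
Cav2: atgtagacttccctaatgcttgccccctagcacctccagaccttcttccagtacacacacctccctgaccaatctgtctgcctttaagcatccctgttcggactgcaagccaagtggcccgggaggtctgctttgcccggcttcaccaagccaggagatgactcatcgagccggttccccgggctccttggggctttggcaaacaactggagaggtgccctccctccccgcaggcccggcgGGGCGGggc
Cavin2: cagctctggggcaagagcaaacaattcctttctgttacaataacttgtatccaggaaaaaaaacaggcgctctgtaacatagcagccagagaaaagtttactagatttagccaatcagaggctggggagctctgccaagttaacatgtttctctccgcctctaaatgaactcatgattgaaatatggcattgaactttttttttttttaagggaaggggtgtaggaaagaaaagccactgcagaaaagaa
Mfsd2a: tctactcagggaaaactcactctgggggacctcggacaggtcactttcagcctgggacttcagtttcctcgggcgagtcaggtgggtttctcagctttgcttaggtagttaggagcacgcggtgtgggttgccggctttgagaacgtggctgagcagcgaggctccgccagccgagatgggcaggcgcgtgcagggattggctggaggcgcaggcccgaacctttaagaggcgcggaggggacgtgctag

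A GC box stood in 6 of the 11 promoter entries of these members. They belong to Cav1, Cav2, Cavin1, Ehd2 and Pacsin2, but other entries of Cav1 and Pacsin2 held none, and Cavin1 counts with 2 nearly identical windows. The GC box stood in 32.7% of the 32851 mouse promoter entries of the same length. The TATA motif TATAAA was found on either strand in 1 member, Cav1 (12.4% of all promoters), and the ETS core CCGGAA in 0 (12% of all promoters), and no matches overlapped. The promoters differed in composition, since that of Cavin2 was 40.4% G or C with 2 CG pairs, while those of Cav1, Cav2 and Mfsd2a were 59.6%, 62.0% and 61.6%. The median of all promoters was 52.4% with 6 CG pairs. These matches describe letters in the windows and no binding was measured.

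The deposited counts summed to between 50375426 and 60725557 per library. Gjb6, the deleted gene, had 2899 counts in the C57BL6 control, 2246 in the mixed control and 96 in the Cx30-deleted library. The vessel identity of the RNA was checked with marker lists, summed in counts divided by each library's size factor (normalized counts). The 10 endothelial markers summed to 106552.0 in the C57BL6 control, 63162.8 in the mixed control and 121854.7 in the Cx30-deleted library, and each was above 50 normalized counts in all 3. Markers of other cells were present too, as, in the same order of libraries, the 10 choroid plexus epithelial markers summed to 12483.4, 5884.4 and 8245.8 without Ttr, which alone had 137638.3, 52928.9 and 71367.8, 8 smooth muscle markers to 52434.6, 74017.7 and 69441.7 and 7 neuronal markers to 38058.1, 46503.4 and 25876.6, all of them above 50 in every library. In such bulk RNA, fewer cells of a type and less RNA per cell cannot be told apart. Each group is 1 library, so no spread between replicates is known, and the 95% intervals of ratios (exact binomial) cover the sampling of reads only.

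All 9 members were well sampled, with 572 to 15036 counts in any library. Per kilobase of transcript, the scale on which genes can be compared, Cavin1 was the highest and Cav1 the second in each library, and Plvap was the lowest. Cavin1 stood at 3761.0 normalized counts per kilobase in the C57BL6 control, 2893.5 in the mixed control and 4378.7 in the Cx30-deleted library. Cav1 stood at 2610.6, 1933.6 and 2957.6. These levels put Cavin1 and Cav1 above at least 96.8% of the genes with 50 or more normalized counts in each library.

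**Figure D1:**
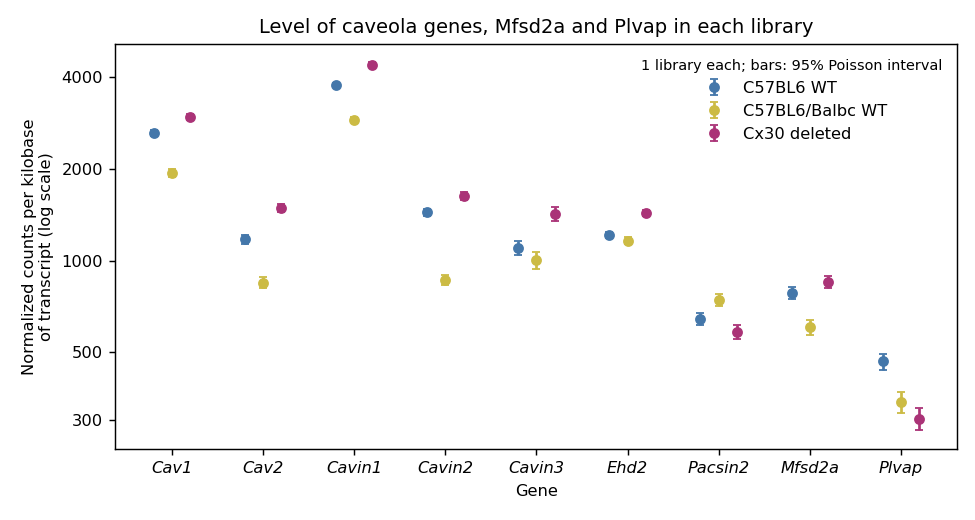
Normalized counts per kilobase of transcript (log scale) of each gene in the 3 libraries, 1 point per library, with 95% Poisson intervals that cover counting error only. Cavin1 and Cav1 are highest and Plvap lowest in each library, Pacsin2 is highest in the mixed control (744.3), and Plvap is lowest in the Cx30-deleted library (302.3).

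The order between these ends differed by library. In the C57BL6 control it ran Cavin2 (1437.1 normalized counts per kilobase), Ehd2 (1209.5), Cav2 (1171.6), Cavin3 (1101.0), Mfsd2a (782.7) and Pacsin2 (643.3), where the counting intervals of Ehd2 and Cav2 and of Cav2 and Cavin3 overlapped. In the Cx30-deleted library it ran Cavin2 (1626.9), Cav2 (1487.8), Ehd2 (1430.7), Cavin3 (1419.0), Mfsd2a (850.1) and Pacsin2 (583.7), with overlap of Cav2 and Ehd2 and of Ehd2 and Cavin3. In the mixed control Ehd2 (1159.7) and Cavin3 (1000.8) came ahead of Cavin2 (862.9) and Cav2 (845.7), which overlapped, and Pacsin2 (744.3) ahead of Mfsd2a (605.1). Mfsd2a and Pacsin2 thus changed places between the mixed control and the other libraries. Plvap, at 467.2, 343.3 and 302.3 in the C57BL6 control, mixed control and Cx30-deleted libraries, stood at percentiles 70.7, 60.1 and 55.9 of the genes with 50 or more normalized counts.

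None of the 9 members reached a 2-fold difference in any comparison, although the counting intervals of 27 of the 27 ratios excluded 0. At this threshold 2.67% of the genes tested differed between the Cx30-deleted and C57BL6 control libraries, 8.69% between the Cx30-deleted and mixed control libraries, 3.43% between the WT libraries and 1.42% in the same direction in both Cx30 comparisons. Scaled to all genes, the 2 caveolins, the 3 cavins, Ehd2 and Mfsd2a were higher in the Cx30-deleted library than in both WT libraries, as were 37.1% of all genes, and Pacsin2 and Plvap were lower than in both, as were 36.6%, but 18 of the 27 member ratios changed sign when the libraries were scaled by the endothelial markers instead, a shift common to all genes that changed the sign of 39.6% of all ratios. The Cx30 comparisons share the Cx30-deleted library, so these directions are not independent of each other. At a lower threshold of 1.5-fold, 1 member (Plvap) differed between the Cx30-deleted and C57BL6 control libraries (10.8% of genes), 4 (Cav1, Cav2, Cavin1 and Cavin2) between the Cx30-deleted and mixed control libraries (28.9%), 1 (Cavin2) between the WT libraries (15.4%) and 0 in both Cx30 comparisons (7.51%).

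**Figure D2:**
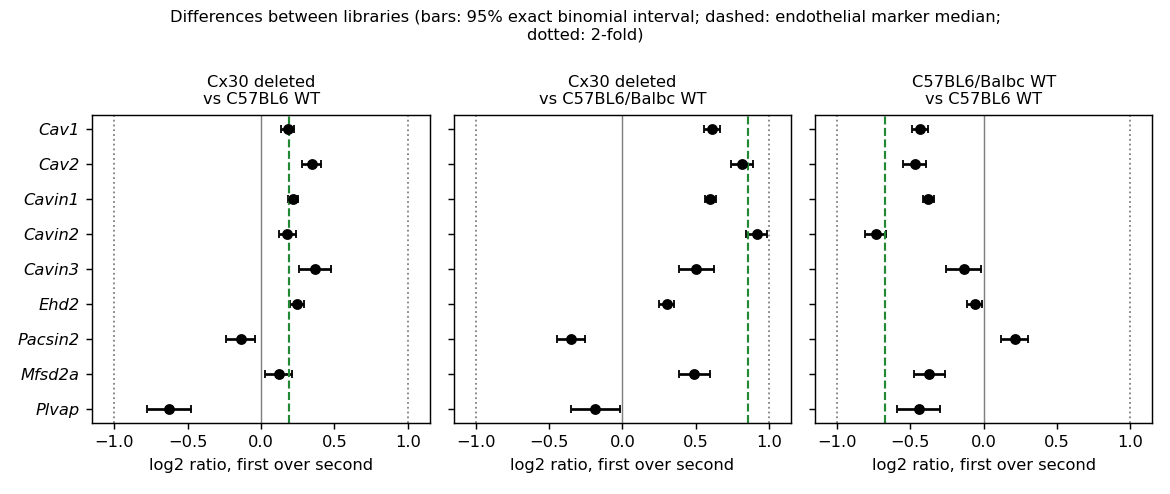
Log2 ratio of each gene in the 3 comparisons (first library over second), scaled to all genes, with 95% exact binomial intervals for read sampling. The dashed line is the median of the 10 endothelial markers (0.19, 0.86 and -0.67 from left to right), and no point reaches the dotted 2-fold lines. Scaling by the endothelial markers instead shifts all points of a panel alike (by -0.21, -0.96 and 0.74), which changes the sign of 18 of the 27 ratios.

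Of the caveolins, Cav1, whose product is the main structural protein of endothelial caveolae, had 6584.0 normalized counts in the C57BL6 control, 4876.6 in the mixed control and 7459.0 in the Cx30-deleted library. Scaled to all genes, the Cx30-deleted library was highest and the mixed control lowest. The log2 ratios were 0.18 (95% interval 0.13 to 0.23) for Cx30-deleted over the C57BL6 control and 0.61 (0.56 to 0.67) over the mixed control. The WT libraries themselves differed by -0.43 (-0.49 to -0.38, mixed over C57BL6 control), more than the Cx30-deleted library differed from the C57BL6 control. Cav2, which needs caveolin-1 to reach the cell surface, had 3202.1 (C57BL6 control), 2311.4 (mixed control) and 4066.2 (Cx30-deleted) normalized counts, and log2 ratios of 0.34 (0.28 to 0.41), 0.81 (0.74 to 0.89) and -0.47 (-0.55 to -0.39).

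Scaled to all genes, both caveolins were highest in the Cx30-deleted library and lowest in the mixed control. Scaled by the endothelial markers, both were highest in the mixed control. The log2 ratios for mixed over C57BL6 control were then 0.31 (Cav1) and 0.27 (Cav2), and those for Cx30-deleted over the mixed control -0.34 and -0.14. Within a library, Cav2 stood at 0.449 of Cav1 per kilobase in the C57BL6 control, 0.437 in the mixed control and 0.503 in the Cx30-deleted library. This share differed between the WT libraries by a log2 ratio of -0.04 (-0.13 to 0.06), an interval that holds 0, and was higher in the Cx30-deleted library by 0.16 (0.08 to 0.24) and 0.20 (0.11 to 0.30) than in the C57BL6 control and the mixed control. All 9 transcript rows of Cav1 and all 3 of Cav2 gave the same sign as the row used in each comparison, scaled to all genes. The sizes differed between rows. Those of Cav2 ran from 0.34 to 0.69 for Cx30-deleted over the C57BL6 control and from -0.47 to -0.15 between the WT libraries. The Cav2 row used was the lowest in both. A read on a shared exon counts for each row of its gene, so the rows are not independent of each other.

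Of the cavins, Cavin1, required for caveolae to form in all tissues, was the most abundant member. Its normalized counts were 13129.6, 10101.0 and 15286.1 in the C57BL6 control, mixed control and Cx30-deleted libraries. Relative to Cav1, Cavin1 stood at 1.441, 1.496 and 1.48 per kilobase in these libraries, and the 95% interval of the difference of this share held 0 in all 3 comparisons (log2 0.04, -0.02 to 0.10, for Cx30-deleted over the C57BL6 control). No difference in the proportion of Cavin1 to Cav1 was detectable at this depth, while both genes were higher in the Cx30-deleted library than in the mixed control when scaled to all genes (Cavin1 log2 0.60, 0.56 to 0.64) and not when scaled by the endothelial markers.

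Cavin2, which helps shape the caveolar membrane and is needed for caveolae in some endothelia but not in others, had 4388.8 normalized counts in the C57BL6 control, 2635.4 in the mixed control and 4968.4 in the Cx30-deleted library. Scaled to all genes, Cavin2 had the largest difference of any member, a log2 ratio of 0.91 (0.84 to 0.99) between the Cx30-deleted and mixed control libraries, and also the largest between the WT libraries, -0.74 (-0.81 to -0.67). Scaled by the endothelial markers, these ratios were -0.04 and 0.01, the smallest in size of the members in both comparisons. Between the Cx30-deleted and C57BL6 control libraries Cavin2 differed by 0.18 (0.12 to 0.24), scaled to all genes. Its share of Cavin1 per kilobase was 0.382 in the C57BL6 control, 0.298 in the mixed control and 0.371 in the Cx30-deleted library, lowest in the mixed control. Unlike that of Cavin1, its share of Cav1 differed beyond read sampling between the Cx30-deleted library (0.550 per kilobase) and the mixed control (0.446), by log2 0.30 (0.21 to 0.39), and between the mixed and C57BL6 controls by -0.30 (-0.39 to -0.21).

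Cavin3, which binds protein kinase C delta, had 1139.5, 1035.8 and 1468.7 normalized counts. Its log2 ratio of 0.37 (0.26 to 0.48) was the highest of the members between the Cx30-deleted and C57BL6 control libraries, and it was 0.50 (0.38 to 0.62) against the mixed control. The first rank was not resolved, since the interval of Cav2 (0.34, 0.28 to 0.41) overlapped that of Cavin3. With all transcript rows summed, Cav2 was the higher of these genes (0.395 against 0.363). The WT libraries differed by -0.14 (-0.26 to -0.02). The exons of Cavin3 overlap those of Gm45667, an uncertain transcript on the opposite strand, with which 20.15% of the 50-base stretches of its GENCODE form of 1662 bases are shared. The share was not computed for the deposited form of 1035 bases that was counted. Because the libraries were made without strand, the reads of the 2 genes cannot be told apart there. The other 8 members shared 0 such stretches with another gene.

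Ehd2, the ATPase that holds caveolae at the membrane, had 6168.4 normalized counts in the C57BL6 control, 5914.6 in the mixed control and 7296.3 in the Cx30-deleted library. It was the member with the smallest difference between the WT libraries when scaled to all genes, a log2 ratio of -0.06 (-0.11 to -0.01), whose sign was opposite in the other of its 2 transcript rows. Scaled to all genes, it was higher in the Cx30-deleted library by 0.24 (0.19 to 0.29) than in the C57BL6 control and by 0.30 (0.25 to 0.35) than in the mixed control. Relative to Cav1 per kilobase, Ehd2 was 0.463, 0.600 and 0.484, highest in the mixed control.

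Pacsin2, an F-BAR protein that acts at caveolae and also in other endocytosis, went the other way. It had 1797.9, 2080.3 and 1631.3 normalized counts, so that the mixed control was the highest and the Cx30-deleted library the lowest. Its log2 ratios were -0.14 (-0.24 to -0.04) for Cx30-deleted over the C57BL6 control, -0.35 (-0.45 to -0.25) over the mixed control and 0.21 (0.12 to 0.30) between the WT libraries. Pacsin1, its paralog of neurons, had ratios of the same signs (-0.39, -0.92 and 0.53), and so did the medians of the 7 neuronal markers (-0.56, -0.81 and 0.30). Whether neuronal RNA contributes to Pacsin2 was not tested.

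Mfsd2a had 1683.6 normalized counts in the C57BL6 control, 1301.5 in the mixed control and 1828.5 in the Cx30-deleted library. Scaled to all genes, the Cx30-deleted and C57BL6 control libraries were close, with a log2 ratio of 0.12 (0.02 to 0.21), the smallest of the members in this comparison and of opposite sign in 2 of its 4 transcript rows. Against the mixed control the ratio was 0.49 (0.38 to 0.60), and the WT libraries differed by -0.37 (-0.48 to -0.27). Relative to Cav1, Mfsd2a stood at 0.300, 0.313 and 0.287 per kilobase in the 3 libraries. This share differed by log2 -0.06 (-0.17 to 0.04) between the Cx30-deleted and C57BL6 control libraries, by -0.12 (-0.24 to -0.0038) between the Cx30-deleted and mixed control libraries and by 0.06 (-0.05 to 0.18) between the WT libraries. The proportion of the gene that restrains caveolae to the gene that builds them thus differed beyond read sampling in 1 comparison, and there by little.

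Plvap had 927.4 normalized counts in the C57BL6 control, 681.5 in the mixed control and 600.1 in the Cx30-deleted library. It was lowest in the Cx30-deleted library, with log2 ratios of -0.63 (-0.78 to -0.48) against the C57BL6 control and -0.18 (-0.35 to -0.02) against the mixed control, while the WT libraries differed by -0.44 (-0.59 to -0.30). It was thus 0.647 of the C57BL6 control level and 0.880 of the mixed control level, and the difference between the WT libraries was larger than the second of these.

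Plvap was also set against Cav1, a comparison chosen after the values were seen. Per kilobase, Plvap was 0.179 of Cav1 in the C57BL6 control, 0.178 in the mixed control and 0.102 in the Cx30-deleted library. The WT libraries differed in this share by log2 -0.01 (-0.16 to 0.14), and the Cx30-deleted library was below the C57BL6 control (log2 -0.81, -0.96 to -0.65) and the mixed control (-0.80, -0.97 to -0.62). Plvap was the 1 member that was at least 1.5-fold lower relative to Cav1 in both Cx30 comparisons, as were 9.72% of all genes. Relative to the median of the endothelial markers it was also the 1 member at least 1.5-fold lower in both (log2 -0.82 and -1.04), as were 10.5% of all genes. Its share of Mfsd2a per kilobase was 0.597, 0.567 and 0.356.

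**Figure D3:**
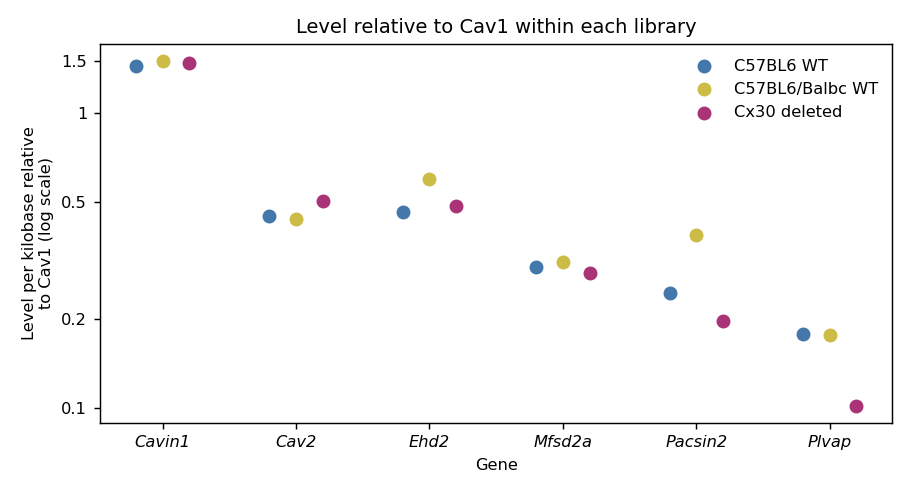
Level per kilobase of 6 genes relative to Cav1 within each library (log scale), 1 point per library. Cavin1 lies between 1.441 and 1.496 and Mfsd2a between 0.287 and 0.313, Pacsin2 is highest in the mixed control (0.385), and Plvap is 0.179 and 0.178 in the WT libraries and 0.102 in the Cx30-deleted library.

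Markers of veins and of the choroid plexus give context to Plvap. Of the 6 markers of veins and venules, Ackr1, chosen after its values were seen, an atypical chemokine receptor of venules, was the 1 lower in the Cx30-deleted library than in both WT libraries (2116.7, 1648.2 and 1512.8 normalized counts in the C57BL6 control, mixed control and Cx30-deleted libraries), while the list's medians were 0.36 and 0.58 (log2). Plvap per Ackr1 was 0.259, 0.245 and 0.235 per kilobase, values to which the choice of a gene with the same pattern contributes. The 10 choroid plexus epithelial markers, from a tissue whose vessels are fenestrated, were all lower than in the C57BL6 control (median log2 -0.59, where Plvap was -0.63) but all higher than in the mixed control (median 0.46, where Plvap was -0.18). Their part in the Plvap values was not tested.

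Set beside the endothelial markers, the 6 caveola genes other than Pacsin2, together with Mfsd2a, are given by comparison. Between the Cx30-deleted and C57BL6 control libraries these 7 genes lay within -0.07 to 0.17 (log2) of the endothelial median of 0.19. Between the Cx30-deleted and mixed control libraries they lay from -0.55 (Ehd2) to 0.06 (Cavin2) of the endothelial median of 0.86, and between the WT libraries from -0.07 (Cavin2) to 0.61 (Ehd2) of the median of -0.67. Ehd2 was the furthest of the 7 from the endothelial markers in both of these comparisons. Pacsin2, which is not among the 7, lay further away than any of them in each comparison. Its distances from the endothelial median were -0.33 (Cx30-deleted over the C57BL6 control), -1.21 (over the mixed control) and 0.88 (between the WT libraries). Caveolae are also abundant in smooth muscle, and the 8 smooth muscle markers had medians of 0.37 (Cx30-deleted over the C57BL6 control), -0.12 (over the mixed control) and 0.53 (between the WT libraries). The part of each cell type in these ratios was not tested.

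**Figure D4:**
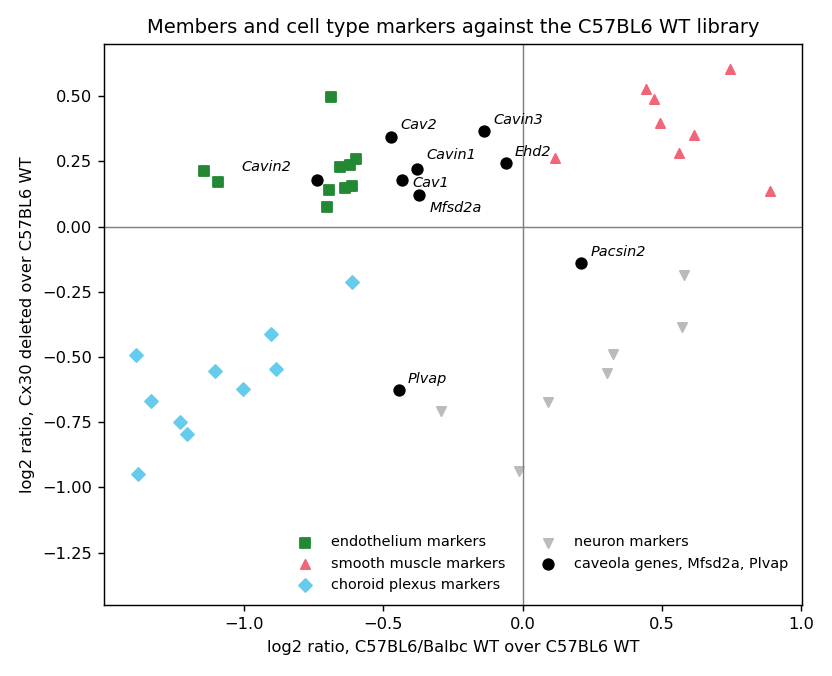
Log2 ratio to the C57BL6 control, for the mixed control (horizontal) and the Cx30-deleted library (vertical), of the 9 genes and of markers of 4 cell types, scaled to all genes. The endothelial markers lie at upper left and the smooth muscle markers at upper right, the caveola genes other than Pacsin2 lie between them in horizontal position or within the range of the endothelial markers (Cavin2), Plvap lies at lower left, and both axes share the C57BL6 control.

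The 3 genes with the most similar pair of log2 ratios to the C57BL6 control were sought among 8584 genes with a mean of at least 500 normalized counts. For Cav1 they were Abhd4, Dram2 and Snx18 (distance 0.0052 to 0.0141), for Mfsd2a Gnas, Sumo3 and Fam13c (0.0033 to 0.0122) and for Plvap Slc7a10, Dgat2 and Slc1a4 (0.0091 to 0.0881). Ackr1 was 23rd for Plvap (0.166). Each distance rests on 3 libraries that share 1 reference, and says nothing of shared function.

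Of 13 further genes of caveolae and their partners, 0 of the 11 with enough counts differed 2-fold between the Cx30-deleted and C57BL6 control libraries, and 0 of 12 against the mixed control. Their medians were 0.13 and 0.03 (log2). Against the C57BL6 control they ranged from -0.39 for Pacsin1 to 0.45 for Ehd4, an EHD2 relative. Against the mixed control they ranged from -0.97 (-1.65 to -0.32) for Cavin4, the cavin of muscle, to 0.81 (0.35 to 1.28) for Cd36, a fatty acid receptor. These 2 extremes rest on few reads. Cavin4 had 47, 59 and 31 counts in the C57BL6 control, mixed control and Cx30-deleted libraries, and Cd36 had 158, 62 and 112. Nos3, the endothelial nitric oxide synthase that caveolin-1 inhibits, had log2 ratios of 0.39, 0.57 and -0.18, of the same signs as Cav1. All 10 endothelial markers had these signs too, so the signs are not particular to Nos3 and Cav1. Cav3, the caveolin of muscle, was low, with 12, 9 and 18 counts in the C57BL6 control, mixed control and Cx30-deleted libraries. Between the WT libraries 1 gene of this list passed 2-fold, Cd36 (log2 -1.04, -1.49 to -0.61), and Flna, an actin cross-linker that binds caveolin-1, was the highest (0.64).

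Of 11 genes of the clathrin and flotillin routes of uptake, 0 differed 2-fold in any comparison. Their medians were -0.02, 0.01 and 0.03 (log2) for Cx30-deleted over the C57BL6 control, Cx30-deleted over the mixed control and mixed over C57BL6 control. The medians were 0.18, 0.50 and -0.38 for the 9 members, 0.19, 0.86 and -0.67 for the 10 endothelial markers and between -0.0045 and 0.0041 for all genes. The last values follow from the scaling to all genes, which holds their median near 0. The part of endothelial RNA in these medians was not tested. The extremes of the clathrin and flotillin genes were Ap2m1 (-0.17) and Picalm (0.29), both of clathrin adaptors, in the first comparison, Ap2a1 (-0.38) and Ap2s1 (0.53) in the second, and Clta, a clathrin light chain, (-0.47) and Ap2a1 (0.30) in the third.

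In a test across genes, the WT libraries formed 1 group by genotype, set against the Cx30-deleted library. edgeR's quasi-likelihood test called 9 of 17565 genes (0.0512%) at an adjusted p (Benjamini-Hochberg) under 0.05, and 0 of the 9 members. Of the members, 0 had an unadjusted p under 0.05, as 1524 of all genes did, and DESeq2 also called 0. The adjusted p of the edgeR test ran from 0.684 for Cav2 (log2 fold change 0.57) to 0.922 for Ehd2 (0.28), and was 0.811 for Plvap (-0.42) and 0.884 for Mfsd2a (0.30). Its only measure of spread is the difference between the WT libraries, which also differ in background, with 1 residual degree of freedom.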

How the data were processed

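The authors trimmed and filtered single reads of 50 bases from libraries made without strand, aligned them with Bowtie 0.12.7 within Eoulsan 1.1.6, removed reads matching more than once and counted alignments overlapping the exons of each transcript. The deposited counts are raw and a read on a shared exon counts for each transcript. Deposited transcript lengths were used per kilobase. Of 82813 transcripts, 69375 (83.8%) were named by identifier in GENCODE M21. The methods name mm10, but the deposited positions reach 197054592 on chromosome 1, past the last annotated position of GRCm38 (195323493), so coordinates are from GENCODE.

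Size factors by the median of ratios were 1.1452 (C57BL6 control), 0.9258 (mixed control) and 0.9532 (Cx30-deleted), and counts were divided by them. A difference was called at 2-fold or more where 1 or both of the libraries compared reached 50 normalized counts. Ratios have exact conditional binomial (Clopper-Pearson) 95% intervals (scipy 1.17.1), levels have exact Poisson intervals, and shares between genes have normal intervals on log counts (Woolf). edgeR 4.0.16 in R 4.3.3 was used with filterByExpr and TMM, and was tested on simulated counts. DESeq2 1.42.0 was an alternative. The members, the gene lists and the tests were chosen with earlier results of these data known, and the comparisons of Plvap with Cav1, the endothelial median and Ackr1 after their values were seen. All members were named, as were genes of the related lists past 2-fold in any comparison or at either end of a list, and the 3 genes nearest Cav1, Mfsd2a and Plvap. Pacsin1 (as a paralog), Nos3, Cav3 and Gjb6 were added. Marker lists not described were reduced to medians in the closing section. Promoters of Cavin3 and Plvap were not used here. A result of the related lists is not reported here.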

Additional observations from a re-analysis of the deposited data

How the results depend on the processing

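The count of members past 2-fold was 0 in each comparison, and stayed 0 with TMM, total count or upper-quartile scaling, the sum of transcript rows or the longest row, a pseudocount of 1, no count minimum and 50 counts in both libraries. Scaling by the 10 endothelial markers gave 2 members (Pacsin2 and Plvap) for Cx30-deleted over the mixed control, where 47.8% of all genes then passed, and the 1.5-fold threshold gave 1, 4 and 1. Of the 27 member ratios, 18 changed sign under endothelial scaling, as did 39.6% of those of all genes, and this scaling moved the median of all genes to -0.22, -0.97 and 0.75 (log2) for Cx30-deleted over the C57BL6 control, Cx30-deleted over the mixed control and mixed over C57BL6 control. The other scalings, rows and pseudocount changed no sign and moved no ratio by more than 0.0808. The edgeR test called 9 genes, 135 without its filter and 35 with median-of-ratios factors, and DESeq2 called 7 of 14186, with 0 members in each. With 1 library per group, leaving out a WT library leaves no residual degrees of freedom, and the values are the Cx30 comparisons of the report. No paired analysis was possible because each group is 1 library. Depth limits Plvap most, with 572 counts in the Cx30-deleted library.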

Other observations

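Genes of fatty acid and lipid uptake, the wider family of functions to which Mfsd2a belongs, were mostly lower in the Cx30-deleted library. Of the 10, 9 were lower than in the C57BL6 control (median log2 -0.28) and 9 than in the mixed control (-0.39), and 0 by 2-fold, while 50.7% and 49.7% of all genes were lower in these comparisons. The 7 neuronal markers were lower too (medians -0.56 and -0.81), and their part in these values was not tested. The lowest were Fabp5, a fatty acid binding protein (262.8, 254.9 and 177.3 normalized counts in the C57BL6 control, mixed control and Cx30-deleted libraries), against the C57BL6 control (-0.57) and Acsl6, an acyl-CoA synthetase of neurons and astrocytes (4821.9, 5530.1 and 3560.6), against the mixed control (-0.64). Abca1, the cholesterol exporter, was the exception, higher by 0.40 and 0.74. Between the WT libraries the list ranged from -0.34 (Abca1) to 0.32 (Spns2, a sphingosine-1-phosphate exporter), with a median of 0.11.

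Of 9 listed sterol genes, which bear on the cholesterol that caveolins bind, 8 were found under the listed symbols. Against the C57BL6 control 7 of the 8 were lower in the Cx30-deleted library (median log2 -0.25), beside 50.7% of all genes and medians of -0.56 for the neuronal and -0.59 for the choroid plexus markers, whose part was not tested, and the highest was Srebf1 (0.10). Against the mixed control 5 were lower (median -0.03), and Srebf1 was again the highest (0.54). Between the WT libraries all 8 were lower in the mixed control (median -0.22), from Insig1 (-0.68) to Scap (-0.02).

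The medians of the other marker lists, in log2 for Cx30-deleted over the C57BL6 control and over the mixed control, were 0.29 and 0.64 for arterial endothelium, 0.13 and 0.64 for pericytes, 0.21 and 0.49 for fibroblasts, -0.25 and -0.24 for astrocytes (a list that holds Gjb6), -0.40 and -0.33 for oligodendrocytes, -0.22 and 0.10 for microglia and 1.28 and 2.05 for red cells. Brain parenchyma markers were thus lower and red cell markers higher in the Cx30-deleted library than in the C57BL6 control.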
